A study of Nothobranchius furzeri and Iconisemion striatum and Callopanchax occidentalis with 18 samples.

Results

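Embryos of Aphyosemion striatum, a non-annual killifish, were set against embryos of other killifish species labelled non-annual, to describe how far the microRNA (miRNA) profiles of directly developing embryos lie apart within 1 species and across species. The members are all libraries labelled non-annual: 4 A. striatum libraries and 1 library from each of 4 other species, namely Rivulus cylindraceus, Epiplatys dageti monroviae, Austrofundulus leohoignei and Aplocheilus lineatus, together 8 of the 18 libraries in the series. The organism field of the labels names A. striatum as Iconisemion striatum. Every one of these libraries was made from whole embryos labelled as somite stage and as not in diapause. The labels give no strain, genotype, treatment or age for them. The remaining 10 libraries came from annual species and are used here only to place a few levels. The labels do not say how many embryos a library holds, nor whether those of A. striatum came from different clutches. The p-values below therefore rest on the spread between libraries, which may be technical. Austrofundulus is otherwise known as a genus of annual fish, so the main comparisons are also given without A. leohoignei.

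Annual killifish pass the dry season as embryos in diapause, an arrest of development, whereas non-annual killifish live in water that persists and their embryos develop without that arrest. miRNAs are short RNAs that bind messenger RNAs and lower their stability or translation. Each hairpin precursor yields a 5p and a 3p arm, and usually 1 arm is kept and the other degraded. In fish embryos the miR-430 family clears maternal messenger RNAs, the miR-10 miRNAs are encoded among the Hox genes of the body axis, and the miR-17-92 clusters are known to promote proliferation.

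The libraries held between 371908 (R. cylindraceus) and 2406413 (A. striatum replicate 2) miRNA counts. A. striatum replicates 1 to 4 had 1467661, 2406413, 1077129 and 751598 counts, and the other species had 1090382 (A. leohoignei), 1167260 (A. lineatus), 371908 (R. cylindraceus) and 524382 (E. dageti monroviae). Of the reads between 18 and 33 nt, 6.29 to 26.7% were counted on miRNAs in A. striatum and 1.43 to 28.5% in the other species. At the depth of the smallest library, between 172 and 215 of the 291 listed miRNAs would be detected in the A. striatum libraries and between 181 and 228 in the other species. The library names carry a lane number, and it split both groups. A. striatum replicates 1 to 3 and A. lineatus came from pool 3, and A. striatum replicate 4, A. leohoignei, R. cylindraceus and E. dageti monroviae came from lane 1. The names do not say whether pool 3, which is another lane, and lane 1 belonged to the same sequencing run or were prepared together. A. striatum replicate 4 stood apart from the other A. striatum libraries, as described below, so results are given with and without it where it matters. The tissue lists checked (muscle, nerve, skin, blood and others, 26 lists in all with the families) had counts in every library, with 1 exception: the red blood cell miRNAs miR-144 and miR-451 had 0 counts in A. striatum replicate 3, which allows up to 3 counts, or 2.79 RPM (reads per 1000000 miRNA counts, with no further scaling).

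The libraries of A. striatum lay closer to each other on average than those of the other species did, by a difference that missed the 0.05 threshold with all 8 libraries. The distance between 2 libraries was taken as the median absolute difference in log2 CPM (counts per 1000000 miRNA counts with TMM scaling, prior count 2) over 152 miRNAs abundant enough to test. It averaged 0.745 among the A. striatum libraries and 1.33 among the other species, a difference of 0.587. The two-sided exact permutation p over the 70 ways to split the libraries 4 against 4 was 0.0571, where 0.0286 is the smallest possible. Without A. leohoignei the difference was 0.4995 (exact permutation p = 0.0571). A. striatum replicates 1 to 3, all of pool 3, lay 0.514, 0.573 and 0.586 apart. A. striatum replicate 4, of lane 1, lay 0.876, 0.922 and 0.998 from them. With the pool 3 replicates alone the distance within A. striatum averaged 0.558 and the difference came to 0.774, with an exact permutation p of 0.0286, the smallest possible. That subset leaves out the library seen in these same distances to lie furthest from its own species. A smaller distance within A. striatum follows from that choice, so this p is not independent support. The subset also leaves A. striatum with 1 lane and the other species with both. The 3 other species of lane 1 lay 1.22 apart on average. Leaving out A. lineatus, the only other species of pool 3, gave a difference of 0.504 (p = 0.171, exact permutation test).

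Across species, A. leohoignei and A. lineatus were the most distant pair of the other species, at 1.73, and R. cylindraceus and E. dageti monroviae the closest, at 1.09. The closest pair across the groups was A. striatum replicate 4 with E. dageti monroviae, at 0.688, which is closer than replicate 4 lay to any library of its own species. A. lineatus, of pool 3, lay 0.795, 0.806 and 1.07 from A. striatum replicates 1 to 3, against 1.37 from replicate 4. A. leohoignei was far from all A. striatum libraries, at 1.63 to 1.79 from the pool 3 replicates and 1.22 from replicate 4. Mean distances were 1.29 between the lanes and 1.07 and 0.724 within lane 1 and pool 3. Grouped by lane, distances between lanes exceeded those within lanes by 0.392 on average (one-sided exact permutation p = 0.0286, the smallest possible). Grouped by A. striatum or other species the excess was 0.149 (p = 0.0571, one-sided exact permutation test). The grouping by lane was chosen after the data were seen.

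**Figure D1:**
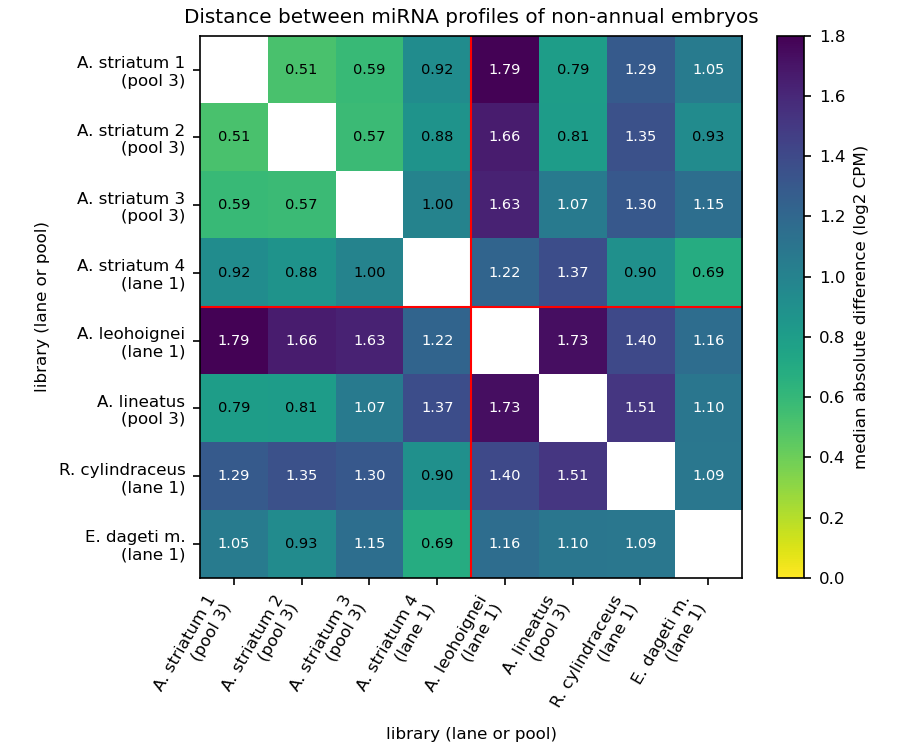
Distance between every pair of the 8 libraries, as the median absolute difference in log2 CPM over 152 miRNAs (colour and printed value), with the lane beside each library and red lines between A. striatum and the other species. The 3 pool 3 libraries of A. striatum form the closest block (0.51 to 0.59), and replicate 4 lies closer to E. dageti monroviae (0.69) than to them.

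The same picture held miRNA by miRNA. The median SD of log2 CPM was 0.713 among the A. striatum libraries and 1.32 among the other species (n = 4 each), and it was larger among the other species for 124 of 152 miRNAs (81.6%). Among the 89 miRNAs with at least 50 CPM on average in both groups the medians were 0.682 and 1.23, and 72 were more spread among the other species. The biological coefficient of variation that edgeR fitted to each group alone was 0.628 in A. striatum and 0.971 in the other species. It was 0.492 in the 3 pool 3 libraries of A. striatum. Grouped by lane instead, the median SD over all 152 miRNAs was 0.689 in pool 3, which includes A. lineatus, and 1.14 in lane 1. The biological coefficients of variation were 0.629 in pool 3 and 0.895 in lane 1. A low spread was thus also found in a set that held another species.

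**Figure D2:**
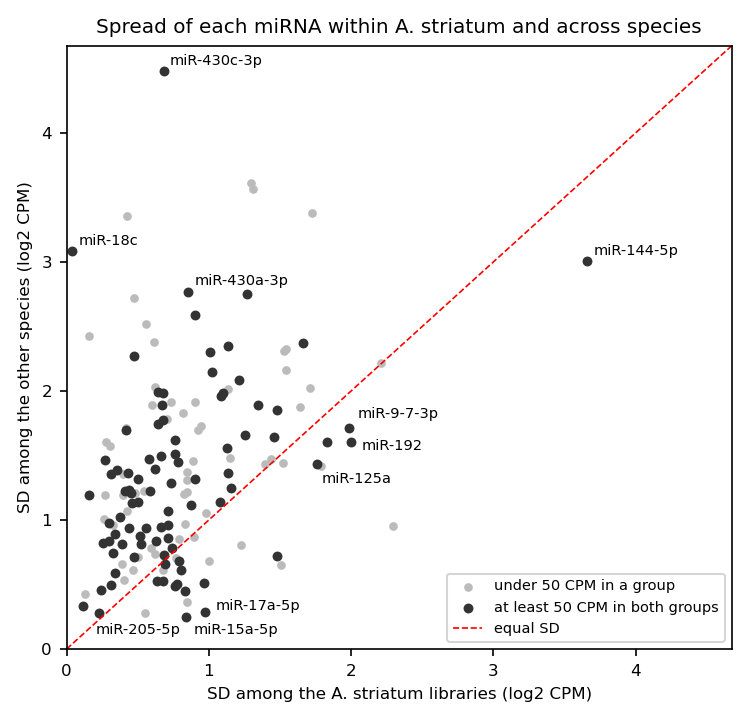
SD of log2 CPM of each of 152 miRNAs among the 4 A. striatum libraries (horizontal) and among the 4 other species (vertical), with the line of equal SD. Most points (124) lie above the line. With the TMM scaling used here miR-18c is nearly constant in A. striatum (SD 0.04) and varies across species (SD 3.08), and miR-144-5p varies in both groups.

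Among the 89 miRNAs with at least 50 CPM on average in both groups, miR-18c, of the miR-17-92 group of clusters, was the steadiest within A. striatum and among the most variable across species. It had 147, 144, 149 and 140 CPM in A. striatum replicates 1 to 4, against 1767 CPM in A. leohoignei, 8.43 in A. lineatus, 205 in R. cylindraceus and 81.3 in E. dageti monroviae. A. leohoignei thus lay far above, and A. lineatus, with 5 counts, far below a level that A. striatum held within a narrow range with TMM scaling. The narrow range depended on the scaling. In plain RPM A. striatum had 87.2, 126, 77.1 and 196, the highest in replicate 4. With TMM scaling miR-16b, of a family known to restrain the cell cycle, was steady in both groups. It had 1039 to 1232 CPM in A. striatum and 1199 to 2042 CPM in the other species. In plain RPM these ranges were 590 to 1453 and 929 to 3015. miR-205-5p, known from the epidermis, was steady too, at 6436 to 9396 CPM in A. striatum and 5736 to 8819 CPM in the other species. In plain RPM its ranges were 4617 to 9003 and 4479 to 18606. miR-9-5p, of neural progenitors, lay between 305 and 396 CPM in A. striatum, and between 51.8 CPM in R. cylindraceus and 389.7 CPM in A. lineatus. In plain RPM its ranges were 203 to 427 in A. striatum and 61.8 to 389 in the other species. miR-221-3p had SDs of 0.24 in A. striatum and 0.46 in the other species with TMM scaling. In plain RPM it had 201 to 794 in A. striatum and 181 to 1499 in the other species.

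With TMM scaling, some miRNAs varied more within A. striatum than across species. miR-17a-5p had 774, 400.2, 524 and 157 CPM in A. striatum replicates 1 to 4, against 177, 202, 126 and 164 CPM in A. leohoignei, A. lineatus, R. cylindraceus and E. dageti monroviae. Replicate 4 alone fell within the narrow range that the other species had with TMM scaling. In plain RPM the other species spread more widely, at 386, 103, 151 and 326 RPM in the same order. A. striatum had 458, 350, 270 and 220 RPM. miR-15a-5p, too, was lowest in replicate 4, with 136, 104, 129.6 and 38.0 CPM in A. striatum replicates 1 to 4. The other species had 63.8, 47.2, 72.1 and 60.3 CPM in the same order. In plain RPM the other species again spread more, at 139, 24.0, 86.0 and 120, against 80.4, 91.0, 66.8 and 53.2 in A. striatum. miR-100-5p, also among the steadiest in the other species (SD 0.45), had an SD of 0.83 in A. striatum. Without replicate 4, the A. striatum SD of miR-15a-5p was 0.20, below the 0.25 of the other species. That of miR-17a-5p was 0.48, above 0.28 in the other species, and that of miR-100-5p was 0.94.

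Among the same 89 miRNAs, the most variable within A. striatum were miR-144-5p, miR-192, miR-9-7-3p, miR-143 and miR-125a. miR-144-5p, from the hairpin that red blood cells express beside miR-451, had 294, 413, 0 and 22.8 CPM in A. striatum replicates 1 to 4, and 55.0, 724, 4.50 and 285 CPM in A. leohoignei, A. lineatus, R. cylindraceus and E. dageti monroviae. Its highest and lowest levels thus lay far apart in both groups. Its counts stood beside few of miR-451, the erythroid miRNA, 0, 31, 0 and 1 counts in A. striatum and 31, 3, 1 and 3 counts in the other species. miR-192, of liver and gut, reached 3026 CPM in A. striatum replicate 2, against 166 to 256 CPM in the other A. striatum libraries, and had 72.1 to 986 CPM in the other species. miR-143, known from smooth muscle, had 39.6 to 878 CPM in A. striatum, the lowest in replicate 3, and 108 to 1203 CPM in the other species. miR-9-7-3p and miR-125a were high in replicate 4 and are described with the lanes.

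In the other species the largest SDs of these 89 belonged to miR-430c-3p (4.48), miR-18c (3.08), miR-144-5p, miR-430a-3p (2.77) and miR-19c-3p (2.75). miR-19c-3p, of the miR-17-92 clusters, had 27.0 to 49.5 CPM in A. striatum replicates 1 to 3 and 205 CPM in replicate 4, against 3.37 CPM in A. lineatus and 92.8 to 374 CPM in the 3 lane 1 species.

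Most of the counts went to few miRNAs, and their shares differed widely across species. The miR-430 family took 33.9, 34.4, 64.1 and 52.4% of counts in A. striatum replicates 1 to 4, against 1.91% in A. leohoignei, 11.5% in A. lineatus, 65.5% in R. cylindraceus and 16.3% in E. dageti monroviae. The A. striatum libraries all lay above 3 of the other species and below R. cylindraceus. The means were 46.2% ± 14.7 in A. striatum and 23.8% ± 28.4 in the other species (SD, n = 4 each). The 95% Wilson interval of a family share reached at most 0.153 percentage points to either side for the 3 families given here, and all intervals and floors here cover only counting error.

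The miR-430 family consisted almost wholly of miR-430a-3p and miR-430c-3p, in proportions that differed between species. miR-430a-3p took 24.2, 22.8, 45.7 and 34.4% of counts in A. striatum, against 1.89% in A. leohoignei, 8.09% in A. lineatus, 61.9% in R. cylindraceus and 3.25% in E. dageti monroviae. miR-430c-3p took 9.76, 11.7, 18.3 and 18.01% in A. striatum, against 0.0223% in A. leohoignei, 3.18% in A. lineatus, 3.65% in R. cylindraceus and 12.7% in E. dageti monroviae. E. dageti monroviae was the only one of the 8 libraries with more miR-430c-3p than miR-430a-3p. Neither passed the test described below (log2 fold changes of 1.36, SE 1.27, and 2.32, SE 1.26). These members are similar in sequence, so how the authors' counting divided reads between them is uncertain.

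The miR-10 family took 56.0, 48.9, 24.8 and 22.1% of counts in A. striatum, against 48.6% in A. leohoignei, 76.0% in A. lineatus, 5.98% in R. cylindraceus and 49.0% in E. dageti monroviae. Its main member, miR-10b-5p, was the most abundant miRNA in 5 of the 8 libraries and second to miR-430a-3p in A. striatum replicates 3 and 4. In R. cylindraceus, where miR-430a-3p took the most, miR-92a-3p came next and then miR-10b-5p with 5.38%. High miR-430 and low miR-10 shares stood together in A. striatum replicates 3 and 4 and in R. cylindraceus; as shares sum to a whole, the pair is not independent.

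The miR-17-92 clusters took 3.08, 3.93, 3.24 and 11.4% of counts in A. striatum replicates 1 to 4, against 25.8% in A. leohoignei, 2.40% in A. lineatus, 15.998% in R. cylindraceus and 15.5% in E. dageti monroviae. This share followed the lane: it was 11.4 to 25.8% in the 4 lane 1 libraries and 2.40 to 3.93% in the 4 pool 3 libraries. Most of it was miR-92a-3p, with 9.60% in A. striatum replicate 4 and 2.07 to 2.62% in replicates 1 to 3, against 23.0% in A. leohoignei, 14.4% in R. cylindraceus, 12.6% in E. dageti monroviae and 1.60% in A. lineatus. The share itself was not tested for the lane. In the comparison of lanes described below, 0 of its 20 members tested were called, beside 8 of all 152 miRNAs. With TMM scaling, 18 of the 20 were higher in lane 1, with a median log2 fold change of 0.55 beside 0.12 over all miRNAs. miR-92a-3p had 1.29 (SE 0.60, edgeR adjusted p = 0.262).

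**Figure D3:**
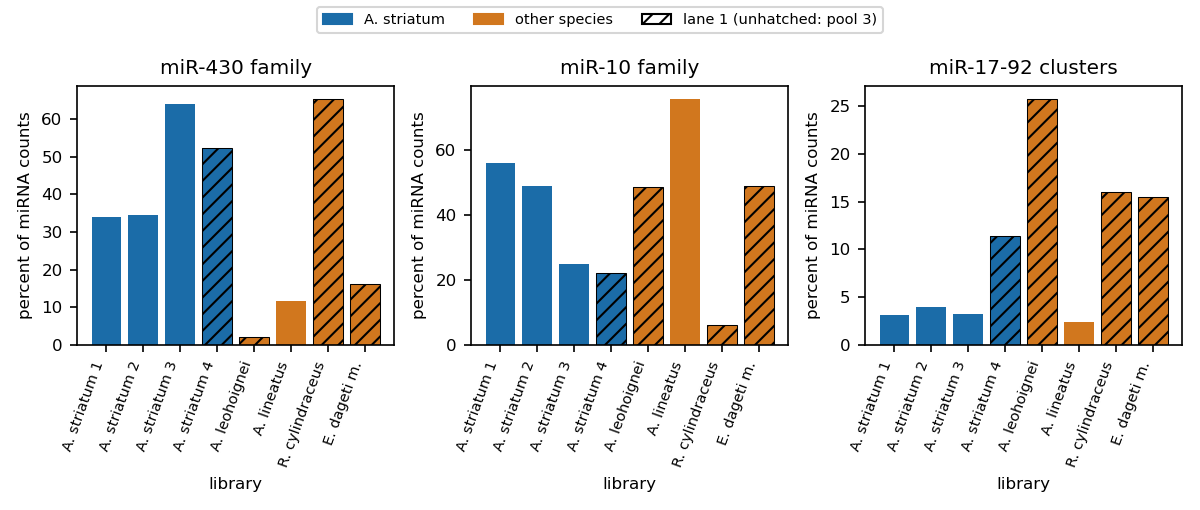
Share of miRNA counts taken by the miR-430 family, the miR-10 family and the miR-17-92 clusters in each library (bars, percent, from 0); blue is A. striatum, orange the other species, hatching marks lane 1. The miR-430 share spans 33.9 to 64.1% in A. striatum and 1.91 to 65.5% in the other species, and the miR-17-92 share is above 11% in each hatched library and below 4% in each of the others.

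The miR-181 family, known in lymphoid and neural cells, took 0.547, 1.99, 0.406 and 1.30% in A. striatum and 2.01, 0.614, 0.659 and 2.26% in A. leohoignei, A. lineatus, R. cylindraceus and E. dageti monroviae, so the groups overlapped. miR-462 and miR-731, a fish cluster induced by low oxygen and virus infection, together took 0.133 to 0.518% in A. striatum. They took 0.765% in E. dageti monroviae but only 0.0333 to 0.0632% in the other 3 species. Muscle miRNAs took 0.00808 to 0.0274% in A. striatum and 0.00834 to 0.0622% in the other species, the lowest of these in R. cylindraceus. Neuron miRNAs took 0.188% in A. striatum replicate 4 and 0.0144 to 0.0302% in replicates 1 to 3, against 0.124 to 0.363% in the 3 lane 1 species and 0.0139% in A. lineatus. In such bulk samples, fewer cells of a type and less RNA per cell cannot be told apart.

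miR-146a and miR-19b-5p were higher in the A. striatum libraries than in those of the other species. All 8 libraries were compared for 152 miRNAs with edgeR's quasi-likelihood test, and a miRNA was called at a Benjamini-Hochberg adjusted p under 0.05. The test called 2 of 152 (1.32%), both higher in A. striatum, with 26 at an unadjusted p under 0.05. It took libraries of 1 species and single libraries of 4 species as equally variable. Their biological coefficients of variation were 0.628 and 0.971. The p-values therefore refer to these libraries and not to species in general. The median log2 fold change over all miRNAs was -0.04. It was -0.22 with DESeq2's size factors, -0.31 with TMM without the 10 most abundant miRNAs and -0.76 with library totals only.

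miR-146a, which in mammals restrains innate immune signalling, had 4228, 5157, 6516 and 1634 CPM in A. striatum replicates 1 to 4, against 166 CPM in A. leohoignei, 342 in A. lineatus, 54.0 in R. cylindraceus and 218 in E. dageti monroviae. The lowest A. striatum library, replicate 4, lay well above the highest other species. The means were 4384 ± 2060 CPM in A. striatum and 195 ± 119.7 CPM in the other species (SD, n = 4 each), a log2 fold change of 4.49 (SE 0.71, edgeR adjusted p = 0.00603). With the lane in the model it was 3.71 (SE 0.58, edgeR adjusted p = 0.0167), the only call of that fit (0.658% of 152). Within lane 1 it was 3.53, with replicate 4 as the only A. striatum library (edgeR adjusted p = 0.998), and within pool 3 3.77 (adjusted p = 0.0542, edgeR). Without A. leohoignei it was 4.11 and no longer called (adjusted p = 0.102, edgeR).

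miR-19b-5p is the 5p arm of a miR-17-92 hairpin whose 3p arm is the one usually kept. It had 143, 170, 61 and 105 counts in A. striatum replicates 1 to 4, against 4 in A. leohoignei, 0 in A. lineatus, 0 in R. cylindraceus and 7 in E. dageti monroviae. In CPM these were 165, 80.7, 109.8 and 99.9 in A. striatum and 1.68, 0, 0 and 6.70 in the other species, so the groups were far apart, at a low level. The log2 fold change was 5.53 (SE 1.09, edgeR adjusted p = 0.0212). Against the floor of 3 counts per library, the A. striatum mean was at least 22.5-fold higher than A. lineatus and at least 16.8-fold higher than R. cylindraceus. With the lane in the model the log2 fold change was 5.94 (SE 1.20) and was not called (edgeR adjusted p = 0.0531). Leaving out A. striatum replicate 1, 3 or 4, A. leohoignei or R. cylindraceus also ended the call (edgeR adjusted p between 0.0601 and 0.138). All species were counted against a single list of miRNAs, and whether their miR-19b-5p sequences differ from it was not tested.

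The levels of the groups did not overlap for 13 of 152 miRNAs (8.55%), 12 higher and 1 lower in A. striatum. This count depended on the scaling: it was 13 (8 higher and 5 lower) with DESeq2's size factors, 13 (7 higher and 6 lower) with TMM without the 10 most abundant miRNAs, and 6 (5 higher and 1 lower) with library totals only. miR-146a, miR-19b-5p and miR-735-5p were the 3 of these 13 that did not overlap under any of the 4 scalings. Below, those other than miR-146a and miR-19b-5p were chosen after their values were seen, and none of them passed the test.

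miR-735-5p had 625, 416, 772 and 387 CPM in A. striatum replicates 1 to 4, against 0.420 CPM (1 count) in A. leohoignei, 106 in A. lineatus, 27.0 in R. cylindraceus and 0.957 (1 count) in E. dageti monroviae. A. striatum held it within a narrow range while the other species spread widely. The log2 fold change was 4.05 (SE 1.32, edgeR adjusted p = 0.205). miR-219-3p, from a hairpin known in the myelin-forming cells of mammals, had 53.0, 96.8, 23.4 and 20.9 CPM in A. striatum, against 7.56, 1.69, 4.50 and 7.65 CPM in the other species, a log2 fold change of 3.11 (SE 0.80, edgeR adjusted p = 0.116). The level of miR-219-3p was low throughout, and with library totals only the groups overlapped. The other arm, miR-219-5p, overlapped with TMM scaling, at 4.76 to 79.8 CPM in A. striatum and 4.50 to 38.3 CPM in the other species.

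The let-7 family, known to rise as cells differentiate, had positive log2 fold changes for 6 of its 6 members tested with TMM scaling, and for 5 of 6 with library totals only. Their median was 1.93, beside -0.04 over all miRNAs, and none was called. let-7a had 385, 416, 578 and 617 CPM in A. striatum, against 89.0 CPM in A. leohoignei, 299 in A. lineatus, 124 in R. cylindraceus and 72.7 in E. dageti monroviae. let-7g had 523, 367, 526 and 295 CPM in A. striatum, against 36.1, 45.5, 252 and 72.7 CPM in the same order of species. For both, A. striatum lay above each other species with TMM scaling, but let-7g overlapped with library totals only, and let-7a overlapped with DESeq2's size factors and with TMM without the 10 most abundant miRNAs. Their log2 fold changes were 1.77 (SE 0.64) and 2.08 (SE 0.75), both with an edgeR adjusted p of 0.205. As a share of all counts the family took 0.0705, 0.0817, 0.0698 and 0.227% in A. striatum and 0.0371, 0.0218, 0.0745 and 0.0435% in the other species, where R. cylindraceus lay within the A. striatum range.

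miR-223, known from neutrophils and their precursors, was with TMM scaling the 1 miRNA lower in all A. striatum libraries, with 9.22, 8.07, 3.60 and 8.56 CPM in A. striatum, against 65.1, 13.5, 40.5 and 9.57 CPM in A. leohoignei, A. lineatus, R. cylindraceus and E. dageti monroviae. The margin to E. dageti monroviae was small, and the log2 fold change of -2.10 (SE 0.75) was not called (edgeR adjusted p = 0.205). With library totals only its groups overlapped. Of the white blood cell miRNAs together, A. striatum had 0.00102 to 0.00226% of counts and the other species 0.00439 to 0.0532%. In A. lineatus and R. cylindraceus most of this was miR-150 (35 and 162 counts) rather than miR-223 (8 and 18 counts). miR-150 had 5 counts in A. leohoignei, 3 in E. dageti monroviae and 0 to 8 in A. striatum. miR-222a-5p, miR-456, miR-724, miR-200a-5p, let-7i and miR-430c-3p completed the 13, with log2 fold changes between 1.06 and 2.32 and edgeR adjusted p between 0.205 and 0.572.

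**Figure D4:**
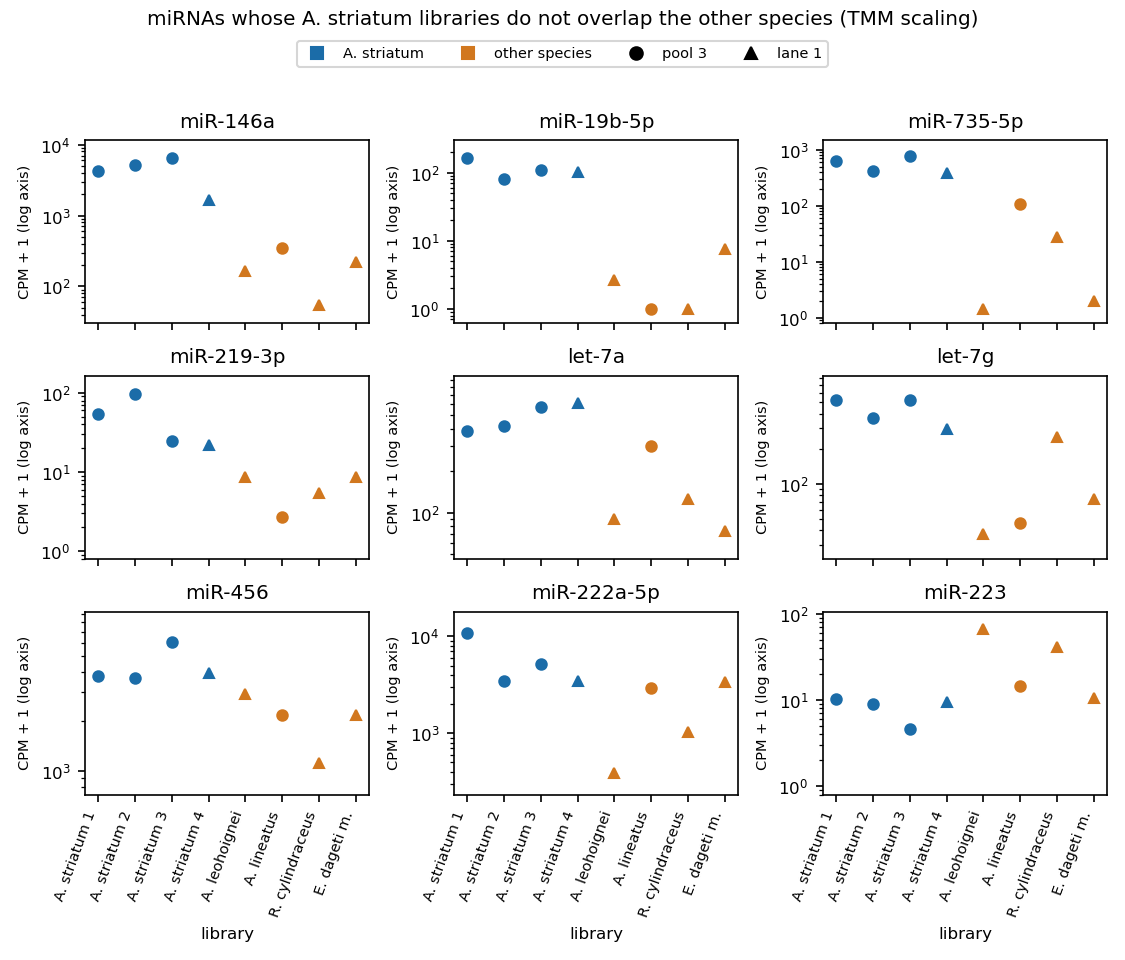
CPM + 1 (log axis) of 9 of the 13 miRNAs whose A. striatum libraries (blue) did not overlap the other species (orange) with TMM scaling; circles are pool 3 and triangles lane 1. miR-146a and miR-19b-5p, which passed the test, and miR-735-5p leave the widest gaps, while miR-222a-5p (3436 CPM in A. striatum replicate 2, 3399.9 in E. dageti monroviae) and miR-223 leave little.

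Each other species was then set against the A. striatum libraries alone. These 4 comparisons share the A. striatum libraries, which also give all of the spread in the test, so each single library is assumed to vary like them. The lane was not in these fits. A. leohoignei, R. cylindraceus and E. dageti monroviae came from lane 1, but A. striatum replicates 1 to 3 came from pool 3. Species and lane can therefore not be told apart in full. Of 152 miRNAs, 104 (68.4%) lay outside the A. striatum range in A. leohoignei, 87 (57.2%) in A. lineatus, 96 (63.2%) in R. cylindraceus and 69 (45.4%) in E. dageti monroviae. A further library of A. striatum would also fall outside a range of 4 values for many miRNAs. These shares alone therefore do not show a difference between species. edgeR called 31 (20.4%) for A. leohoignei, 18 higher and 13 lower in A. striatum (3 higher and 14 lower with library totals only), and 1 (0.658%) for E. dageti monroviae. It called 0 (0%) for A. lineatus, with 23 at an unadjusted p under 0.05, and 0 (0%) for R. cylindraceus, with 31, and no other tool was run on these contrasts. Without A. striatum replicate 4 the calls were 56, 9, 7 and 24 for A. leohoignei, E. dageti monroviae, A. lineatus and R. cylindraceus, and without replicate 1 there were 0 for A. leohoignei. The call for E. dageti monroviae was lost without replicate 1 or 3. Whether the species differ from each other in these counts was not tested.

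The 2 abundant miR-430 miRNAs were called higher in A. striatum than in A. leohoignei, and miR-29a and miR-301c-3p lower. miR-430c-3p, at 128733 CPM or more in each A. striatum library, had 102 CPM in A. leohoignei (log2 fold change 10.90, SE 1.68, edgeR adjusted p = 0.0100). miR-430a-3p had 246067 CPM or more in A. striatum and 8638 CPM in A. leohoignei (5.70, SE 1.58, edgeR adjusted p = 0.0420). miR-735-5p had 1 count in A. leohoignei, so that the A. striatum mean was 1310-fold higher, with an exact Poisson interval of 235 to 51734 (edgeR adjusted p = 0.00992). A difference in its sequence between species could lose counts, and this was not tested. miR-29a, known to repress collagens, had at most 37.1 CPM in A. striatum and 667 CPM in A. leohoignei (-4.62, SE 0.66, edgeR adjusted p = 0.00992). miR-301c-3p, of the miR-130 family, had 3.46 to 8.07 CPM in A. striatum and 137 CPM in A. leohoignei (-4.43, SE 0.66, edgeR adjusted p = 0.00992). miR-199-3p, of mesenchyme, had 0 to 19.9 CPM in A. striatum and 474 CPM in A. leohoignei (-5.42, SE 1.24, edgeR adjusted p = 0.0270); how the authors' counting split reads between it and the similar miR-199-3-3p is uncertain. Among the other calls, chosen after their values were seen, miR-26a-5p and miR-26b were both lower in A. striatum (-2.55 and -2.34). miR-462 and miR-731 were both higher (4.69 and 5.19), as were miR-200a-5p and miR-200b-5p of the epithelial miR-200 family (3.78 and 3.44). The other arms of these hairpins were not called and lay on the other side: miR-200a-3p had 51.4 to 164 CPM in A. striatum and 267 CPM in A. leohoignei, and miR-200b-3p had 19.6 to 93.2 CPM in A. striatum and 198 CPM in A. leohoignei. The epithelium list as a whole took 0.0292 to 0.101% of counts in A. striatum and 0.206% in A. leohoignei.

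The single A. lineatus library had far more miR-1 than the A. striatum libraries, though miR-1 was not called. miR-1, the muscle miRNA, had 6.91, 3.32, 41.4 and 12.4 CPM in A. striatum replicates 1 to 4, against 1048 CPM in A. lineatus (log2 fold change -6.10, SE 1.11, edgeR adjusted p = 0.0794). The level was also above the A. striatum range in E. dageti monroviae, at 191 CPM, and not in R. cylindraceus (18.01) or A. leohoignei (2.10). The other muscle miRNAs tested lay within the A. striatum range in A. lineatus. miR-206-3p had 123 CPM there (33.3 to 216 in A. striatum) and miR-133a-3p 18.6 CPM (6.91 to 32.8), and miR-133b-3p was low in both. Against all the other species, miR-1 and miR-206-3p had opposite log2 fold changes (-4.33, SE 1.57, and 1.07, SE 0.85), neither called. miR-216b, known from the pancreas, had 5.76 to 30.4 CPM in A. striatum and 261 CPM in A. lineatus, with 247 CPM in A. leohoignei. miR-184, known from lens and cornea, had 1280 to 5884 CPM in A. striatum and 16382 CPM in A. lineatus. On the low side were miR-19b-5p with 0 counts, miR-18c as above and let-7g. With the 3 A. striatum libraries of the same lane, edgeR called 4.

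R. cylindraceus stood alone in miR-31. It had 1002 CPM there, against 1.15, 18.5, 9.00 and 17.1 CPM in A. striatum replicates 1 to 4 (log2 fold change -6.40, SE 1.02, edgeR adjusted p = 0.0622) and 3.83 to 6.30 CPM in the other 3 species. miR-30c-5p had 393 to 1231 CPM in A. striatum and 5737 CPM in R. cylindraceus, a level it also had in A. leohoignei (5657 CPM). Its lanes did not overlap. The highest A. striatum value was that of replicate 4, E. dageti monroviae of lane 1 had 985 CPM and A. lineatus of pool 3 had 695 CPM. miR-737-5p had 5.40 to 17.6 CPM in A. striatum and 83.3 CPM in R. cylindraceus, and was higher still in A. leohoignei (238 CPM). miR-19b-5p (0 counts), miR-146a (54.0 CPM) and miR-735-5p (27.0 CPM) were the furthest below the A. striatum range.

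E. dageti monroviae had the fewest miRNAs outside the A. striatum range of the 4 species. Its one call was miR-735-5p, at 1 count, with an A. striatum mean 575-fold higher and an exact Poisson interval of 103 to 22710 (edgeR adjusted p = 0.0312). Here too, a difference in sequence was not tested. miR-181c-5p had 12.7 to 32.8 CPM in A. striatum and 298 CPM in E. dageti monroviae (log2 fold change -3.76, SE 0.73, edgeR adjusted p = 0.0672), and 8.43 to 11.3 CPM in the other 3 species. miR-2188-3p had 77.2 to 129 CPM in A. striatum and 429 CPM in E. dageti monroviae. miR-458-3p had 2 counts in E. dageti monroviae, where the A. striatum mean was 57.1-fold higher with an exact Poisson interval of 15.8 to 471. miR-430a-3p was low as well, at 16304 CPM.

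The 2 arms of a hairpin can be compared without scaling where both have counts. Among hairpins with both arms listed and at least 50 RPM on average over both (53 of 75 hairpins), the log2 ratio of 5p to 3p counts (0.5 added to each) differed most for miR-430a, miR-19b, miR-181a, miR-135b and miR-17a. miR-430a-5p had 0, 10, 2 and 0 counts in A. striatum replicates 1 to 4, against 0 in A. leohoignei, 2879 in A. lineatus, 0 in R. cylindraceus and 1480 in E. dageti monroviae. The arm was thus near absent in A. striatum and in 2 of the other species and took 0.247 and 0.282% of all counts in A. lineatus and E. dageti monroviae. The mean log2 ratio was -17.92 ± 1.69 in A. striatum and -10.68 ± 7.55 in the other species (SD, n = 4 each), with overlap. With 0 counts on an arm, the ratio is set by the 0.5 added and the depth of the other arm. It is then not a measured ratio. This held in 1 or more libraries for each of the 5 hairpins, so their means and SDs rest in part on it. For miR-19b the ratio was -2.94 ± 0.63 in A. striatum and -9.42 ± 1.06 in the other species, with no overlap, so the 3p arm prevailed in all 8 libraries but less so in A. striatum.

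The miR-181a ratio was 12.78 ± 2.46 in A. striatum and 6.39 ± 3.44 in the other species, with no overlap but a narrow gap, as A. lineatus reached 10.25 and A. striatum replicate 4 stood at 10.55. Its rare arm, miR-181a-3p, had 1, 0, 0 and 4 counts in A. striatum, against 278 in A. leohoignei, 3 in A. lineatus, 377 in R. cylindraceus and 49 in E. dageti monroviae. A. lineatus thus resembled A. striatum here. The miR-17a ratio was 8.88 ± 0.38 in A. striatum and 6.20 ± 1.65 in the other species without overlap, resting on 0 to 6 counts of miR-17a-3p. For miR-135b the groups overlapped (3.05 ± 1.93 in A. striatum and -0.29 ± 3.06 in the other species). A miRNA whose sequence differs between species could lose counts on 1 arm, and this was not tested.

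miR-125a, miR-128-3p, miR-9-7-3p, miR-338 and miR-130c-5p were higher, and miR-10a-5p, miR-30e-3p and miR-34a lower, in lane 1 than in pool 3. In a comparison added after the data were seen, lane 1 was set against pool 3 over the 8 libraries with A. striatum or other species in the model. edgeR called 8 of 152 (5.26%), 5 higher (3.29%) and 3 lower (1.97%) in lane 1. With library totals only it called 9, all higher in lane 1, where the median of all miRNAs was 1.51 against 0.12 with TMM. The lanes did not overlap for 33 miRNAs (21.7%), 20 higher and 13 lower in lane 1, and with library totals only for 43, all higher. Without any 1 of the A. striatum libraries or without A. lineatus the calls fell to 0 (edgeR, 10 to 30 at an unadjusted p under 0.05). There were 5 without A. leohoignei and 5 without R. cylindraceus, all among the 8, and 5 without E. dageti monroviae, 4 of them among the 8.

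miR-125a, which lies in a cluster with let-7 in many animals, had 455, 108, 113 and 108 CPM in the lane 1 libraries (A. striatum replicate 4, A. leohoignei, R. cylindraceus and E. dageti monroviae), against 30.0, 39.4, 52.2 and 13.5 CPM in the pool 3 libraries (A. striatum replicates 1 to 3 and A. lineatus). Its log2 fold change, lane 1 over pool 3, was 3.26 (SE 0.61, edgeR adjusted p = 0.0401). miR-128-3p, of neurons, had 1182, 1529, 878 and 532 CPM in lane 1, against 225, 282, 239 and 164 CPM in pool 3 (2.41, SE 0.53, edgeR adjusted p = 0.0401). miR-9-7-3p had 187, 105, 24.8 and 90.9 CPM in lane 1, against 8.07, 13.3, 10.8 and 6.75 CPM in pool 3 (3.81, SE 0.75, edgeR adjusted p = 0.0401). In all of these A. striatum replicate 4 lay above its own replicates, and for miR-125a and miR-9-7-3p also above each other species. With TMM scaling miR-9-5p, the more abundant member of the miR-9 list, lay the other way. It had 305, 137, 51.8 and 195 CPM in lane 1, against 343, 366, 396 and 389.7 CPM in pool 3. It was not called (-0.93, SE 0.59, edgeR adjusted p = 0.391). In plain RPM its lanes overlapped, with 427, 300, 61.8 and 389 in lane 1 and 203, 320, 204 and 198 in pool 3.

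miR-338, also of the nervous system, had 41, 320, 4 and 20 counts in lane 1, against 0, 1, 0 and 1 in pool 3 (edgeR adjusted p = 0.0401). miR-130c-5p was called higher as well (3.02, SE 0.74, edgeR adjusted p = 0.0471), though the lanes overlapped. Called lower in lane 1 with TMM scaling were miR-10a-5p of the Hox clusters (-2.89, SE 0.63), miR-30e-3p (-2.02, SE 0.48) and miR-34a, a target of p53 (-2.44, SE 0.59). With library totals only, the values of these 3 were -1.38, -0.56 and -1.04 and their lanes overlapped.

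**Figure D5:**
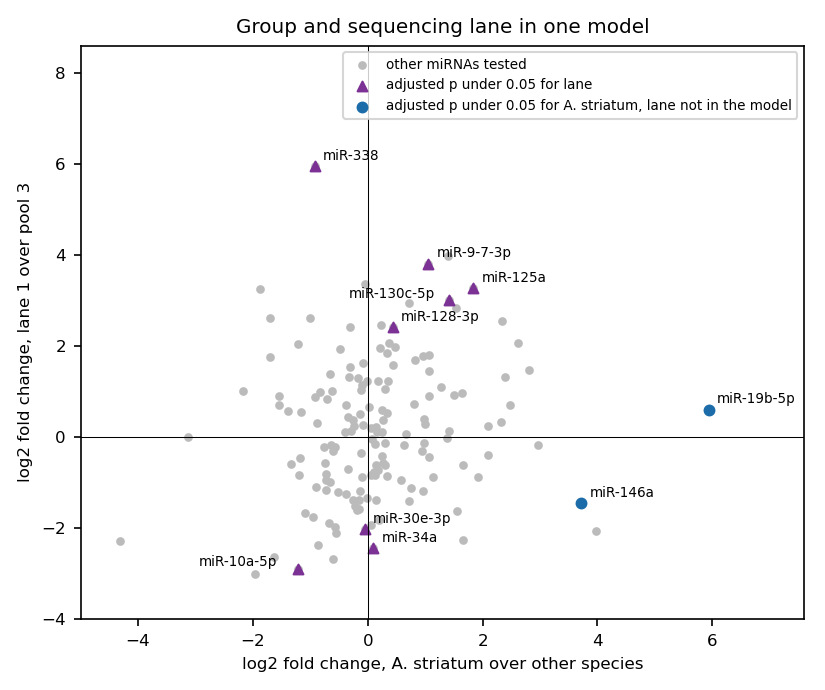
log2 fold change of A. striatum over other species (horizontal) against log2 fold change of lane 1 over pool 3 (vertical) for 152 miRNAs, both from the edgeR model that holds group and lane. The 8 miRNAs called for the lane (purple triangles) lie between -2 and 2 on the horizontal axis, whereas miR-146a and miR-19b-5p (blue), called without the lane in the model, lie to the right.

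Replicate 4 was above all of A. striatum replicates 1 to 3 for 41 miRNAs and below all of them for 58 of 152 (27.0 and 38.2%). Replicates 1, 2 and 3 were the highest of the 4 for 26, 47 and 38 miRNAs, and the lowest for 40, 14 and 40. With TMM scaling, replicate 4 was thus the lowest most often, but replicate 2 was more often the highest. That scaling multiplied plain RPM by 0.715 in replicate 4 and by 1.69, 1.14 and 1.94 in replicates 1 to 3. In plain RPM replicate 4 therefore stands higher against the others, and these counts were not made there. In the annual Nothobranchius furzeri in diapause, where 2 libraries each came from lane 1 and pool 3, miR-125a (1025 and 43.2 RPM in lane 1, 12.5 and 7.55 RPM in pool 3) and miR-128-3p (759 and 799 RPM in lane 1, 255 and 79.4 RPM in pool 3) also lay higher in lane 1. So did miR-9-7-3p and miR-338, while the other 4 called miRNAs overlapped. miR-9-7-3p had 3963 and 12.1 RPM in lane 1, the lower of them from 7 counts, and 4.70 and 3.66 RPM in pool 3. miR-338 had 77.6 and 24.2 RPM in lane 1 and 10.2 and 6.09 RPM in pool 3. RPM has no TMM scaling, and how many of all miRNAs lay higher in lane 1 in N. furzeri was not counted. Strain and diapause time also differed there. For miR-128-3p the remaining N. furzeri libraries did not keep to this order. The diapause library from another pool had 884 RPM, above both lane 1 libraries. The pool 3 libraries not in diapause had 294, 793 and 326 RPM, the highest between the lane 1 values. For miR-125a, miR-9-7-3p and miR-338 all of these libraries lay below both lane 1 libraries. Lane, library preparation and embryo batch cannot be told apart.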

How the data were processed

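The authors deposited raw counts of reads per mature miRNA in each library, made with Illumina's TruSeq small RNA kit from total RNA of whole embryos, per the labels' protocols. Reads were trimmed and kept at 18 to 33 nt, per the file headers. Per the submitters' processing notes, the tools were Bowtie 1.1.2 and 1.0.0, CASAVA 1.8.2 and bcl2fastq 1.8.3. Not given in the sources used here are what the reads were counted against, with how many mismatches, and how a read with several matches was treated. Genomic positions and mature sequences were not analysed here. The line of totals and 2 columns matching no sample were left out.

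Groups came from the labels, and replicate numbers only name libraries and pair nothing. Calls came from edgeR 4.0.16 (R 4.3.3): filterByExpr kept 152 of 291 miRNAs, counts were TMM scaled, and quasi-likelihood p-values were adjusted by Benjamini and Hochberg's method. The script was tested on simulated data. CPM values are TMM scaled, which multiplied plain RPM by 1.14 to 1.97 in the pool 3 libraries and by 0.458 to 0.837 in the lane 1 libraries. These factors did not overlap between the lanes, so contrasts in CPM between groups, species or lanes depend on the scaling. Abundant miRNAs are therefore given as shares of counts. Standard errors are the log2 fold change divided by the root of the F statistic. Library distances were tested with exact permutations of whole libraries, and family shares, SDs and arm ratios are descriptions with no test. A count of 0 allows up to 3 counts.

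Named in each comparison were miRNAs with an adjusted p under 0.05, at least 50 CPM and no overlap (up to 10 higher and 10 lower); for each species the 3 furthest above and the 3 furthest below the A. striatum range with at least 50 CPM in that species or on average in A. striatum; the 5 largest and 5 smallest SDs in each group among miRNAs averaging at least 50 CPM in both; and the 5 hairpins with the largest difference at 50 RPM or more over both arms. The members, the 26 miRNA lists and these rules were chosen with earlier results of these data known. The alternatives were other scalings, filters and prior counts, the Wald test of DESeq2 1.42.0, the voom method of limma 3.58.1 with a variance factor for each group, species as replicate, lane as covariate, 1 lane only, and each library left out. The comparison of lanes and the fits within pool 3 were added after the data were seen.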

Additional observations from a re-analysis of the deposited data

Results flagged for a closer look

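In each group of 4 libraries, a value was singled out where its gap to the nearest library, divided by the group's range, was above 0.829. This held for 31 of 146 groups of values, 15 in A. striatum and 16 in the other species. Chance gives about 1 in 20 for normally distributed values, but the CPM and shares used here were not log transformed, so that rate need not apply. As many of these miRNAs were also named for being extreme in 1 library or lane, the count is not a test.

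In A. striatum, replicate 4 lay apart from replicates 1 to 3, on the high side, in the shares of the miR-17-92 clusters (11.4% of counts), the let-7 family (0.227%), the miR-9 list of neural progenitors (0.0970%) and the neuron list (0.188%). It was also apart in miR-125a (455 CPM), miR-128-3p (1182 CPM), miR-130c-5p (1323 CPM), miR-19c-3p (205 CPM), miR-30c-5p (1231 CPM), miR-338 (39.0 CPM) and miR-9-7-3p (187 CPM). It is the only A. striatum library of lane 1, and within A. striatum the library and the lane cannot be told apart. Replicate 2 was apart in the liver and gut list (0.268% of counts) through miR-192 (3026 CPM), and replicate 3 in miR-430c-3p (355533 CPM) and miR-456 (6088 CPM).

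Among the other species, A. leohoignei was the highest by far in miR-18c (1767 CPM), miR-199-3p (474 CPM), miR-29a (667 CPM), miR-338 (134 CPM) and the cartilage and mesenchyme list (0.292% of counts). A. lineatus was apart on the high side in miR-10a-5p (2274 CPM), miR-10b-5p (1261660 CPM after TMM scaling, 64.1% of counts), miR-184 (16382 CPM), miR-34a (37.1 CPM) and miR-458-3p (86.0 CPM). It was apart on the low side in miR-125a (13.5 CPM) and in the miR-15 and miR-16 list (0.148% of counts). It is the only other species of pool 3, so here too lane and species cannot be told apart. R. cylindraceus was apart in miR-31 (1002 CPM) and let-7g (252 CPM), and E. dageti monroviae in miR-181c-5p (298 CPM) and the miR-462 and miR-731 list (0.765% of counts).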

How the results depend on the processing

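The count of 2 calls of A. striatum against the other species became 1 with library totals only, no filter, at least 50 CPM or lane as a covariate, 3 with limma's voom (all higher), 12 with DESeq2's Wald test (5 higher and 7 lower), 4 within pool 3, and 0 within lane 1 (edgeR, 8 at an unadjusted p under 0.05) or with species as replicate (edgeR, 4). With 1 library left out it was 0 to 3, and 0 without A. leohoignei (edgeR, 16 at an unadjusted p under 0.05). miR-146a kept its call in 15 of 19 alternatives and miR-19b-5p in 8 of 19, with no change of direction in either (log2 fold changes of 3.53 to 4.91 and 4.42 to 9.92). For lane 1 against pool 3, the 8 calls became 0 with no filter (edgeR, 32 at an unadjusted p under 0.05; DESeq2 with the filter 26), 1 with at least 50 CPM, 26 with DESeq2, and 0 to 5 with 1 library left out. For A. leohoignei, the 31 calls became 17 with library totals only and 0 to 56 with 1 A. striatum library left out. For A. lineatus, the 0 calls became 4 with DESeq2's size factors, 1 with TMM without the 10 most abundant miRNAs, 2 with no filter, 2 with at least 50 CPM, 4 within pool 3, and 0 to 7 with 1 library left out. For R. cylindraceus they became 12, 5, 9 and 7 under the first 4 of these settings, and 0 to 24 with 1 library left out. For E. dageti monroviae, the 1 call became 5 with DESeq2's size factors, 0 with library totals only, 2 with no filter, 3 with at least 50 CPM, and 0 to 9 with 1 library left out.

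The difference in mean distance, 0.587, reached the smallest exact permutation p with library totals only (0.736), no filter (0.464), at least 50 CPM (0.695), a prior count of 10 (0.503) and the A. striatum replicates of pool 3 (0.774); with 1 library left out it was 0.490 to 0.808, with p at 0.0286 without A. striatum replicate 4 or E. dageti monroviae and up to 0.171 (exact permutation) without the others, the highest without A. lineatus. With DESeq2's size factors p was 0.0857 (exact permutation test). The difference was positive in all 18 alternatives. The 12 of 232 alternatives that moved a list's share by more than its spread were all of the share without the miR-10 and miR-430 families, whose construction changes the denominator. The cause of the other changes was not tested. No paired analysis was possible because the replicate numbers only follow the order of the samples. With 1 library for each other species, differences between those species have no replicate check.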

Other observations

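Some miRNAs not named above set single libraries apart. miR-9-4-3p had 0, 0, 0 and 193 counts in A. striatum replicates 1 to 4, at least 92.2-fold higher in replicate 4 than the floor of 3 counts in the other replicates, and 271, 2, 1 and 4 counts in A. leohoignei, A. lineatus, R. cylindraceus and E. dageti monroviae. let-7d-5p had 16, 25, 5 and 346 counts in A. striatum, against 7, 10, 3 and 17 counts in the other species. Replicate 4 was thus far above its own species in both, with A. leohoignei as the only other library high in miR-9-4-3p. miR-430b-3p had 0, 0, 0 and 40 counts in A. striatum, against 1, 0, 0 and 399 counts in the other species, the last in E. dageti monroviae. miR-459-5p, with 0, 1, 0 and 0 counts in A. striatum, had 408 counts in A. leohoignei and 0 in each of the other 3 species. These miRNAs were chosen after their values were seen.

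The annual libraries place some of the A. striatum levels. In plain RPM, miR-146a lay between 2286 and 4514 in A. striatum, between 64.5 and 435 in the other non-annual species and between 382 and 4622 in the 10 annual libraries, 6 of which were above the lowest A. striatum library. miR-19b-5p lay between 56.6 and 140 RPM in A. striatum, at most 13.3 in the other non-annual species and at most 6.91 in the annual libraries. miR-735-5p lay between 364 and 542 RPM in A. striatum, at most 54.0 in the other non-annual species and at most 141 in the annual libraries. The A. striatum libraries were therefore the highest of all 18 in miR-19b-5p and miR-735-5p but not in miR-146a.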
